A study of Rattus norvegicus with 8 samples.

Results

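The genes described here are 10 genes of sterol efflux and of the liver X receptors (LXRs), namely the receptors Nr1h2 and Nr1h3, the transporters and HDL receptor Abca1, Abcg1 and Scarb1, the secreted proteins Apoe, Pltp and Lpl, and the phospholipid enzymes Lpcat3 and Smpdl3a. They were measured in 4 right kidney samples of unilaterally nephrectomized and 4 of sham-operated rats. Every array probe whose RefSeq accession belongs to one of these genes was taken, which gave 12 probes for 10 of the 14400 genes that could be named on the array. All 12 probes were well above background on all 8 arrays, and none was saturated. The genes were selected on their role with the processed signals of these 8 arrays, nephrectomized against sham, already compared, so their changes between the groups are a description of these arrays and not an independent test.

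All 8 samples came from F344/NSlc female rats of 10 weeks, an inbred strain, and no transgene or drug is named for either group. Nephrectomized rats had lost 1 kidney and the residual kidney was sampled, with the source names giving 2 days after surgery. Sham-operated rats kept both kidneys, and their source names give 1 day, whereas the study's design text gives 2 days. If the source names are right, the day of sampling and the operation cannot be told apart in any value below. The arrays were 1-colour, with each sample's RNA read in a single dye on an array of its own, and signals are given as log2 of the processed signal over the array's 75th percentile unless stated otherwise. Between 59.5% and 66.1% of the 41012 probes of an array were well above background. All 10 markers of nephron segments and podocytes were above background, with a summed level of 752 to 1010 times the 75th percentile in nephrectomized and 847 to 923 in sham kidneys. The arrays lay on 2 slides, each with 2 arrays of either group. On both slides the sham arrays took the first positions and the nephrectomized arrays the last, so position and operation cannot be told apart either. Nothing in the labels says which animals the samples came from, so the errors measure the spread between these samples.

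As background, LXRs are nuclear receptors that bind oxysterols, oxidised forms of cholesterol, and pair with retinoid X receptors (RXRs) on DNA. When a cell holds much sterol they raise the genes that move cholesterol out, Abca1 and Abcg1 above all, while the SREBP2 factor that drives cholesterol synthesis and uptake is held inactive, and sterol shortage turns both arms the other way. In the kidney, tubule cells, podocytes, endothelium and macrophages all export cholesterol through these transporters.

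Abca1 and Abcg1 had the largest differences of the 10 genes, whereas the 2 LXR genes differed by no more than the spread between arrays. Abcg1 fell by 0.62 and Abca1 was at -1.03 on the log2 scale, with no overlap between the groups for either. Of the 10 genes, 0 were called higher and 1, Abcg1, was called lower by limma at a Benjamini-Hochberg adjusted p under 0.05 over all 20935 features, where 1.04% of all features were called in either direction, 0.750% higher and 0.287% lower. At an unadjusted p under 0.05, limma's test passed 6 of the 10 genes and 16.0% of all features. The groups did not overlap for 4 of the 10 genes, all 4 lower in nephrectomized kidneys, against 11.1% of all features in either direction, 7.06% higher and 4.07% lower. Since the genes were proposed from this comparison, nothing is read from these counts. The 10 changes had a median of -0.03, against 0.01 over all features.

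**Figure D1:**
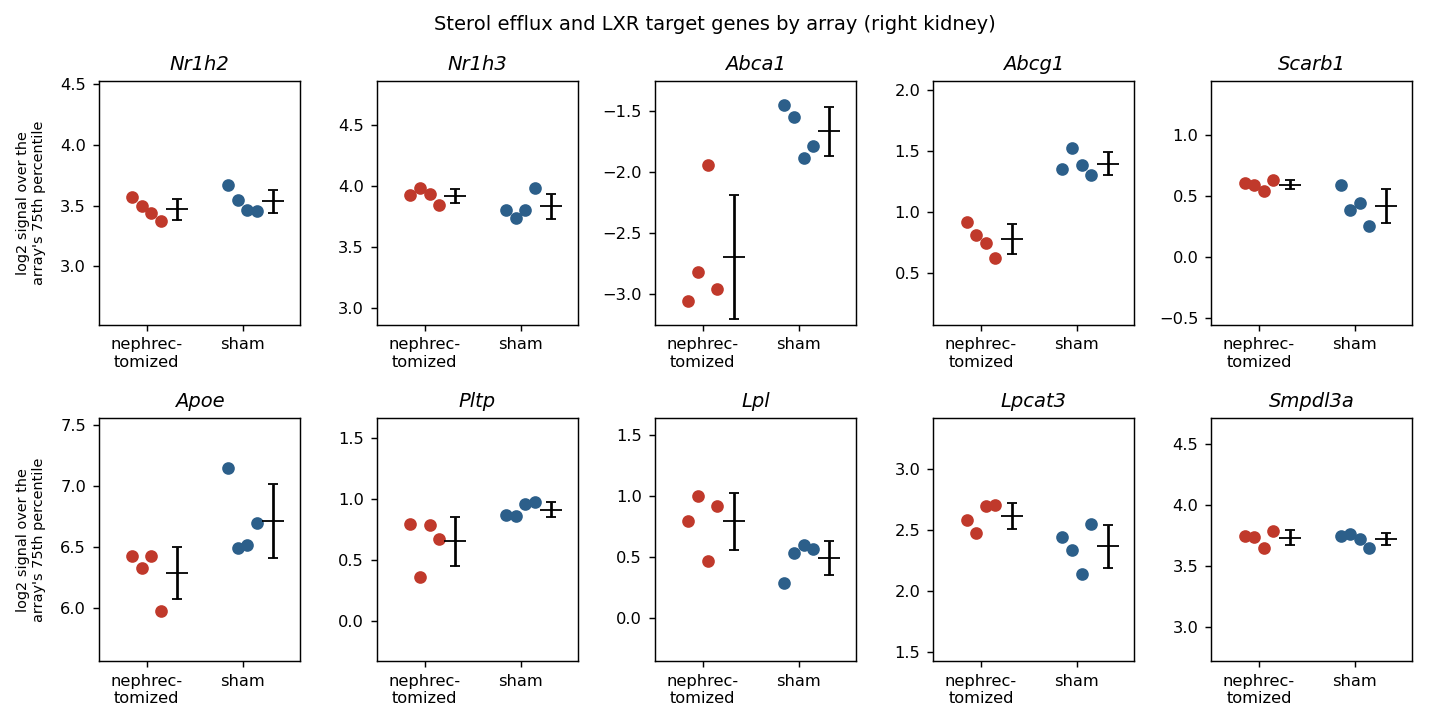
Log2 signal over the array's 75th percentile for the 10 genes, with 1 point per array for 4 nephrectomized (red) and 4 sham (blue) kidneys and bars for mean and SD. Each panel spans 2 log2 units. The Abcg1 points separate by group with little spread, the Abca1 points separate with 1 nephrectomized kidney close to the sham range, and the Smpdl3a points coincide.

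Among the receptors, Nr1h3 encodes LXR alpha, whose level is high in liver, kidney, fat and macrophages. It was at 3.93, 3.98, 3.94 and 3.85 in nephrectomized kidneys 1 to 4, against 3.81, 3.74, 3.81 and 3.99 in sham kidneys 1 to 4. Sham kidney 4 was the highest of all 8, so the groups overlapped. The difference was 0.09 ± 0.07 (SE, limma, n = 4 each), with a 95% interval of -0.07 to 0.24.

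Nr1h2 encodes LXR beta, which most tissues express. It was at 3.57, 3.49, 3.43 and 3.38 in nephrectomized kidneys, against 3.67, 3.54, 3.46 and 3.46 in sham kidneys. The ranges overlapped, with sham kidney 1 the highest and nephrectomized kidney 4 the lowest of all 8. The difference was -0.06 ± 0.07 (SE), with a 95% interval of -0.23 to 0.10. The intervals of both receptors contain 0 and end within 0.24 of it.

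Abcg1, the transporter that passes cholesterol to formed HDL particles, was at 0.92, 0.81, 0.74 and 0.62 in nephrectomized kidneys, against 1.35, 1.52, 1.39 and 1.30 in sham kidneys. The highest nephrectomized kidney lay below the lowest sham kidney, and each group spread over a narrow range. The means were 0.77 ± 0.13 in nephrectomized and 1.39 ± 0.09 in sham kidneys (SD, n = 4 each), a fall of 0.62 ± 0.08 (SE; limma adjusted p = 0.0196), or 1.53-fold lower. Set against the sham mean, nephrectomized kidneys 1 to 4 held 0.721, 0.669, 0.638 and 0.586 of it. The difference was -0.57 on slide 1 and -0.66 on slide 2, and with slide as a block limma's adjusted p was 0.0177. With no filter on dim probes, where more features were tested, the call was lost (adjusted p = 0.0762). The groups stayed apart on all 6 scales compared, which are not separate tests. The authors' table has the scale of the values reported here. The unscaled signal carries the array's overall brightness, with a 75th percentile of 388 to 497 on nephrectomized and 460 to 643 on sham arrays. On it the Abcg1 difference was -0.89. Leaving out any 1 of nephrectomized replicates 2, 3 and 4 or sham replicates 1, 2 and 3 ended the call, with limma adjusted p from 0.0520 to 0.0695, while the change stayed between -0.63 and -0.57.

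Abca1, the transporter that loads cholesterol and phospholipid onto lipid-poor apolipoprotein A-I in the first step of HDL formation, had the largest difference of the 10 genes and also the widest spread. It was at -3.06, -2.82, -1.95 and -2.96 in nephrectomized kidneys, against -1.45, -1.55, -1.88 and -1.79 in sham kidneys. Nephrectomized kidneys 1, 2 and 4 held 0.381, 0.450 and 0.407 of the sham mean, and kidney 3 held 0.825 of it, just below the lowest sham kidney. The means were -2.70 ± 0.51 in nephrectomized and -1.67 ± 0.20 in sham kidneys (SD, n = 4 each), a difference of -1.03 ± 0.24 (SE; limma adjusted p = 0.0826), or 2.04-fold lower, which did not pass. Without nephrectomized replicate 3 the difference was -1.28 and passed (limma adjusted p = 0.0449). Over the 18 alternatives that use both slides it lay between -1.28 and -0.54, with adjusted p from 0.0449 to 0.201.

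The Abca1 signal was dim. Its processed signal was 59.5, 64.7, 126 and 49.7 in nephrectomized kidneys, against 236, 186, 125 and 163 in sham kidneys. The 75th percentile itself was 388 to 497 on nephrectomized and 460 to 643 on sham arrays. On the unscaled signal nephrectomized kidney 3 lay above sham kidney 3, so the groups overlapped. With normexp, a background correction that adds an offset and so shrinks changes of dim probes, the difference was -0.54 and the groups overlapped too. It was -1.44 on slide 1 and -0.62 on slide 2, the slide that holds nephrectomized kidney 3.

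**Figure D2:**
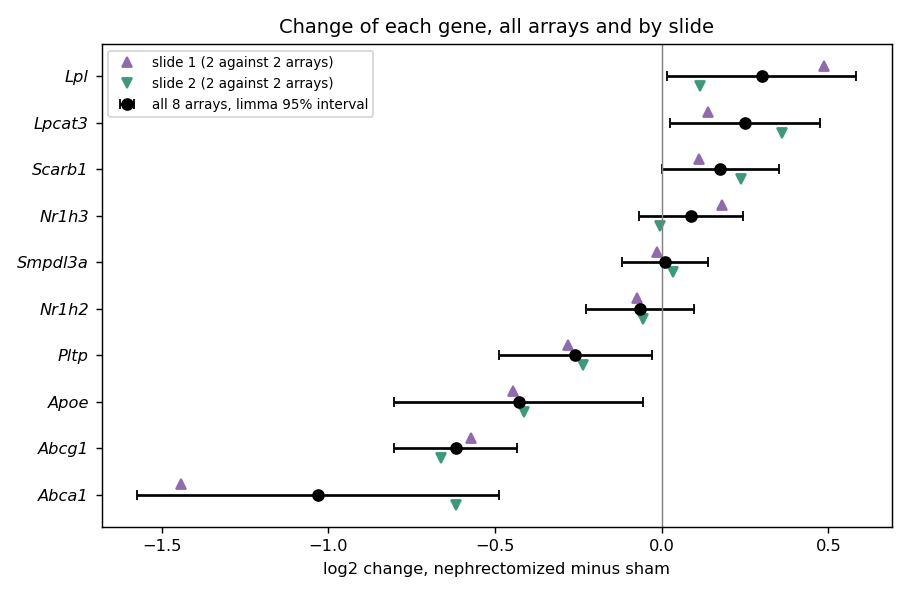
Log2 change of each gene, nephrectomized minus sham, over all 8 arrays with limma's 95% interval (black, not adjusted over the features) and within each slide (triangles). The intervals of Abca1, Abcg1, Apoe and Pltp lie below 0, those of Lpl and Lpcat3 lie above it, and the 2 slides differ most for Abca1.

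The proximal promoter of Abca1 is shown because LXR and RXR are known to bind there in human and mouse cells, at a pair of direct repeats spaced by 4 bases (DR4). The 250 bases upstream of the rat start site come from RefSeq (GRCr8, chr5:72596474-72596723, minus strand), with the best match to the DR4 motif in capitals.
Abca1 promoter: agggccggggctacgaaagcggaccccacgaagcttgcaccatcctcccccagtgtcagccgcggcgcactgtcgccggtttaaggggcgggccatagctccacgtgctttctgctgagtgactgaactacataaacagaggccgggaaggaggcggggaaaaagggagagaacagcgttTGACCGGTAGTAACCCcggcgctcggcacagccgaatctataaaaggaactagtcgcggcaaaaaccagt
The motif searched was AGGTCA, any 4 bases and AGGTCA again, on both strands, in windows of 300 bases. The match lies at positions -70 to -55 from the start site, on the strand opposite to the gene, and differs from the motif at 3 of its 12 fixed letters. Of 33465 rat promoter windows 21.9% hold a match at least as close, so these letters alone do not set Abca1 apart. Matched by symbol, 7 of the 10 genes had an entry, with 9 windows. Smpdl3a alone of the others had a match as close, and the remaining 7 windows, of Nr1h2, Nr1h3, Apoe, Pltp and Lpcat3, had 4 mismatches, as 77.6% of all windows do or better. The matches of Abca1 and Smpdl3a, read on the strand of the motif, compare as follows.
Abca1: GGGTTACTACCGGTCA
Smpdl3a: AGAGCCTAGAAGGTCA
Both windows also hold the E-box CACGTG, which 6.42% of all windows do. The pair of genes with these matches behaved unlike each other, Abca1 at -1.03 and Smpdl3a at 0.01.

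Scarb1 encodes SR-BI, the HDL receptor that passes cholesterol in both directions. It was at 0.61, 0.59, 0.54 and 0.63 in nephrectomized kidneys, against 0.59, 0.38, 0.44 and 0.25 in sham kidneys. Sham kidney 1 reached the nephrectomized range, and the other sham kidneys lay below it. The difference was 0.18 ± 0.08 (SE; limma adjusted p = 0.312). The dimmer probe of Scarb1 differed by 0.34, with no overlap, and was not called either with every probe tested on its own (limma adjusted p = 0.265). Its groups were apart on 4 of the 6 scales. They overlapped with median scaling and on the unscaled signal, where the difference was 0.07. The groups of the brighter probe were apart on 1 of the 6 scales, normexp, and its difference on the unscaled signal was -0.09. Adrenal cortex expresses Scarb1 strongly, and none of the 6 adrenal cortex markers on the array was above background on any array. The part of adrenal tissue in the Scarb1 values was not tested.

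Of the secreted proteins, Apoe, the apolipoprotein that carries lipid between cells and that macrophages and tubule cells release, was at 6.42, 6.33, 6.42 and 5.97 in nephrectomized kidneys, against 7.15, 6.50, 6.52 and 6.70 in sham kidneys. The groups did not overlap, but nephrectomized kidneys 1 and 3 lay close under sham kidneys 2 and 3, and sham kidney 1 and nephrectomized kidney 4 stood at the ends. The difference was -0.43 ± 0.16 (SE; limma adjusted p = 0.254). It was -0.45 on slide 1 and -0.41 on slide 2, and -0.28 without sham replicate 1. The groups overlapped on 2 of the 6 scales, the unscaled signal and normexp.

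Pltp, the phospholipid transfer protein that remodels HDL, was at 0.80, 0.36, 0.79 and 0.68 in nephrectomized kidneys, against 0.87, 0.86, 0.96 and 0.97 in sham kidneys. Nephrectomized kidney 2 was far below the others, and kidneys 1 and 3 nearly touched the sham range. The difference was -0.26 ± 0.10 (SE; limma adjusted p = 0.260), with -0.28 on slide 1 and -0.24 on slide 2. Without nephrectomized replicate 2 it was -0.16. The groups overlapped on 1 of the 6 scales, normexp.

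Lpl, the lipase that frees fatty acids from circulating triglyceride, was measured by 2 probes, and the brighter is printed in 10 spots on each array. It was at 0.79, 1.00, 0.47 and 0.91 in nephrectomized kidneys, against 0.28, 0.53, 0.59 and 0.56 in sham kidneys. Nephrectomized kidneys 1, 2 and 4 were above all sham kidneys, and kidney 3 was within their range. The difference was 0.30 ± 0.12 (SE; limma adjusted p = 0.285), with 0.49 on slide 1, 0.11 on slide 2 and 0.03 on the unscaled signal. The second probe gave 0.32 and put nephrectomized kidney 3 within the sham range as well. Between the 10 single spots of 1 array, outlier spots included, the log2 signal had an SD of 0.03 to 0.14. The SD was 0.23 between nephrectomized and 0.14 between sham arrays. Each array value is an average of its spots without outliers, so the spot SD is not the error of an array value. Fat tissue is rich in Lpl. The summed level of 7 fat markers was 1.22 to 1.58 in nephrectomized and 1.09 to 1.43 in sham kidneys, overlapping. Lep was above background on no array. Of 5 tested fat markers 4 were positive and 1 negative, with a median of 0.06 and the highest at 0.44. Limma called 0 of them, and 0 had an unadjusted p under 0.05. The part of fat tissue in the Lpl values was not tested.

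**Figure D3:**
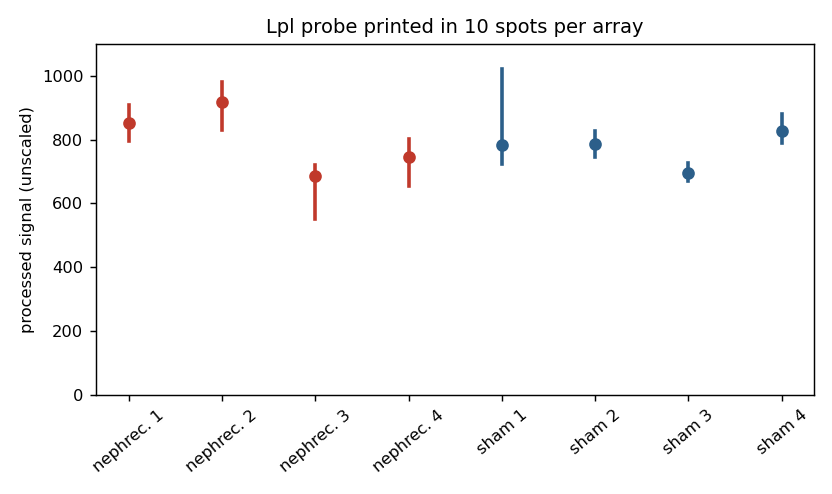
Unscaled processed signal of the Lpl probe that is printed in 10 spots, with the median spot (point) and the lowest to highest spot (line) on each array, for nephrectomized (red) and sham (blue) kidneys. On sham array 1 the 10 spots ran from 722 to 1023, and 3 of them were marked as outliers and left out of the fit.

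Of the phospholipid enzymes, Lpcat3, an LXR target that puts polyunsaturated fatty acids into membrane phospholipids, was at 2.58, 2.47, 2.70 and 2.70 in nephrectomized kidneys, against 2.44, 2.34, 2.14 and 2.54 in sham kidneys. The lowest nephrectomized kidney lay within the sham range. The difference was 0.25 ± 0.10 (SE; limma adjusted p = 0.264), with 0.14 on slide 1, 0.36 on slide 2 and -0.02 on the unscaled signal. Smpdl3a, a secreted phosphodiesterase raised by LXR agonists in human macrophages, was at 3.75, 3.74, 3.64 and 3.79 in nephrectomized kidneys, against 3.75, 3.77, 3.72 and 3.65 in sham kidneys. These ranges were nearly identical, with a difference of 0.01 ± 0.06 (SE) and a 95% interval of -0.12 to 0.14.

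Thus the genes with an interval below 0 were 4 (Abca1, Abcg1, Apoe and Pltp), those with one above 0 were 2 (Lpl and Lpcat3), and 4 intervals held 0. These intervals were not adjusted over the features, and 16.0% of all features had an unadjusted p under 0.05 in limma's test. Only Abcg1 was called after adjustment, so nothing is read from the count of intervals. The sign was the same on both slides for 8 of the 10 genes, and for Nr1h3 and Smpdl3a it was not. The kidneys did not rank alike across the genes. Nephrectomized kidney 3 was nearest the sham mean for Abca1 and Lpl, kidney 1 was nearest for Abcg1, and kidney 4 was farthest for Abcg1 and Apoe.

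Macrophages express Abca1, Abcg1, Apoe and Lpl. Of 13 tested macrophage markers 12 had negative values, with a median of -0.13, 4 had an unadjusted p under 0.05 in limma's test, all 4 lower, and 1, Adgre1, a surface receptor that marks macrophages in rodents, was called lower, at -0.51 ± 0.09 (SE; limma adjusted p = 0.0476), a call that held in 6 of 18 alternatives and not with normexp, where it was -0.38. The summed level of the 17 markers on the array was 47.1 to 54.4 in nephrectomized and 50.4 to 53.8 in sham kidneys, overlapping, and Itgam, Marco and Vsig4 were above background on no array. Among 9 endothelial markers 5 were negative, with a median of -0.17, 0 were called by limma and 2 had an unadjusted p under 0.05, both lower, and the summed level was 30.5 to 34.3 in nephrectomized and 28.4 to 33.6 in sham kidneys. The part of these cells in the values of Abca1, Abcg1 and Apoe was not tested, and in bulk kidney fewer cells of a type and less RNA per cell cannot be told apart.

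Other genes listed here as LXR targets went in both directions, and whether LXRs act on each of them in rat kidney was not tested. The list was written with earlier results of this comparison known, among them a rise of Fasn. Of 13 tested genes 2 rose, 2 fell and 9 were not called, with a median of -0.02. Mylip, an LXR target that encodes the ubiquitin ligase IDOL, which marks the LDL receptor for degradation, fell to -0.20 ± 0.08 in nephrectomized kidneys, against 0.15 ± 0.04 in sham kidneys (SD, n = 4 each), a change of -0.35 ± 0.06 (SE; limma adjusted p = 0.0414). Its nephrectomized values ran from -0.28 to -0.12 and its sham values from 0.11 to 0.21, without overlap. The second probe of Mylip gave -0.22.

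The genes of this list that rose were Fasn, the fatty acid synthase, by 0.45, and Nr0b2, which encodes the receptor SHP, by 0.38 ± 0.07 (SE; limma adjusted p = 0.0460). Srebf1, the LXR target that drives fatty acid synthesis, was at 0.16 ± 0.05 (SE) and was not called (limma adjusted p = 0.162). Srebf1 was chosen for mention after its value was seen. Abcg5, Abcg8, Scd and Cyp7a1 were above background on no array. Over the 18 alternatives that use both slides Mylip passed in 6, Fasn in 8 and Nr0b2 in 5, all 3 with unchanged direction.

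The tested partners of the receptors did not pass. Of 18 listed RXRs and coregulators 14 could be named on the array. Rxra, Ncoa1, Ncoa3 and Ep300 could not, so no value can be given for RXR alpha, whether or not an unnamed probe measures it. Of the 14 tested genes 0 were called by limma, 0 had an unadjusted p under 0.05 and the median was -0.03. Ncor1, the corepressor that sits on LXR without ligand, was at -0.01 ± 0.06 and Gps2, a subunit of the same corepressor complex, at -0.03 ± 0.07 (SE). That Ncor1 value is of its brightest probe. The 4 other Ncor1 probes gave -0.05, -0.05, -1.38 and -0.09, so the probes of this gene did not all behave alike. Of 6 tested genes that make or break down oxysterols, the LXR ligands, 0 were called and 0 had an unadjusted p under 0.05, with a median of -0.03. Ch25h, the cholesterol 25-hydroxylase, was at 0.26 ± 0.23 and Sult2b1, which sulfates oxysterols, at -0.01 ± 0.28 (SE), both with wide spread between arrays.

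Of 6 tested other ABCA and ABCG transporters 0 were called and 2 had an unadjusted p under 0.05, with a median of -0.02. Abca2 was at 0.15 ± 0.06 and Abcg2, a drug and urate exporter, at -0.02 ± 0.12 (SE). The largest change of these transporters was that of Abca4, at 0.40, which is named after its value was seen. Over the 18 alternatives that use both slides Abca4 lay between 0.34 and 0.47 and passed in 3. Of 20 tested HDL and lipoprotein partners 0 were called and 0 had an unadjusted p under 0.05, with a median of 0.02. Apom, an HDL apolipoprotein made in the proximal tubule, was at -0.01 ± 0.11 and Lrp2, which encodes megalin, the receptor that takes up filtered lipoproteins, at -0.14 ± 0.10 (SE).

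Of 20 tested genes of cholesterol storage and traffic within the cell, 1 rose and 19 were not called, with a median of -0.00. Tmem97, a sterol-regulated membrane protein that binds NPC1, rose to 2.30 ± 0.07 in nephrectomized kidneys, against 1.66 ± 0.10 in sham kidneys (SD, n = 4 each), a change of 0.65 ± 0.07 (SE; limma adjusted p = 0.0122). It passed in 16 of the 18 alternatives.

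**Figure D4:**
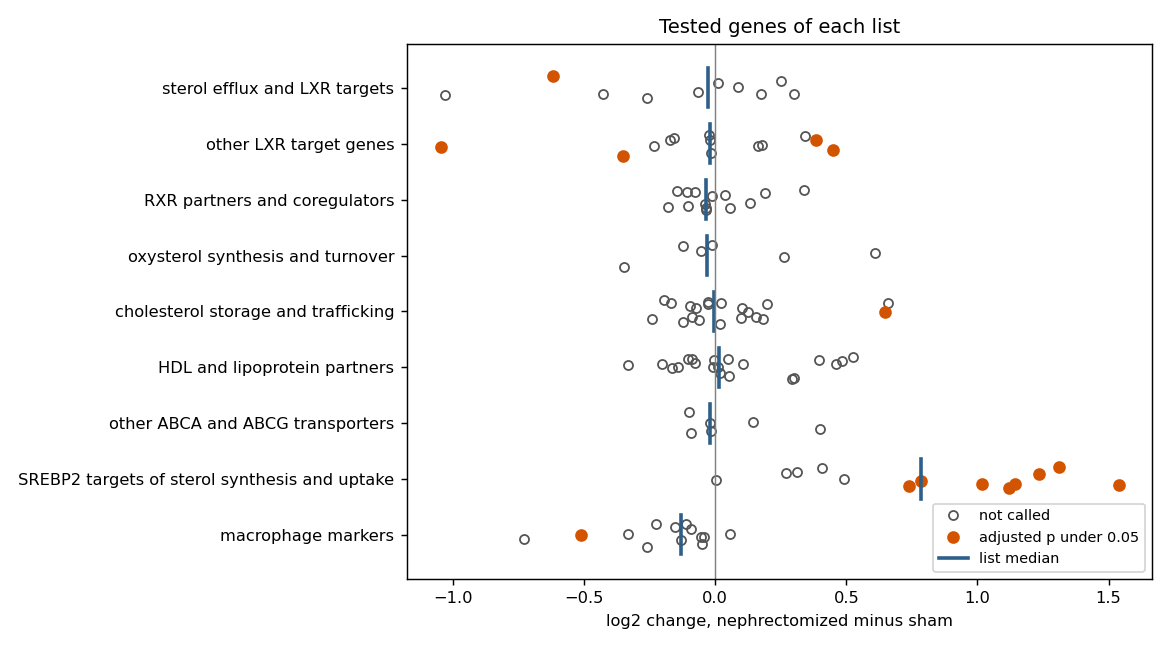
Log2 change, nephrectomized minus sham, of each tested gene by list, with filled points for an adjusted p under 0.05 and bars for list medians. The sterol efflux and LXR targets spread to both sides of 0 around a median of -0.03, whereas the 13 SREBP2 targets all lie above it with a median of 0.78.

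Genes of the SREBP2 arm were already known to rise in these arrays. Of 13 tested members 8 rose and 0 fell, all 13 had positive values, and the median was 0.78. The 8 calls were 5 without sham replicate 2 and 4 with no filter on dim probes. Idi1, the isopentenyl diphosphate isomerase, rose by 1.54 ± 0.13 (SE; limma adjusted p = 0.0101). On the 4 nephrectomized arrays Sqle, the squalene epoxidase, was at 1.19 to 1.61, against 0.14 to 0.54 on the 4 sham arrays.

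The features whose values followed Abcg1 most closely were sought among 10223 other tested features with a symbol, by the root-mean-square distance of log2 values over the 8 arrays after each was centred on its own mean. Rflnb was the nearest, at a distance of 0.06, followed by Ntn4 at 0.07, Map3k6 at 0.09, 1700001K19Rikl at 0.10 and Fkbp5 at 0.11. The median distance to Abcg1 was 0.35. Their changes between the groups, -0.61 to -0.51, follow from a search for values like those of Abcg1. Only the 5 nearest were kept, so the absence of the other 9 genes described here does not show whether they followed Abcg1. For Abca1 the nearest features included Cyp2f4, Bcl3, Nr1d1 and Pla2r1, at distances of 0.34 to 0.35, against a median of 0.63 over all searched features.

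**Figure D5:**
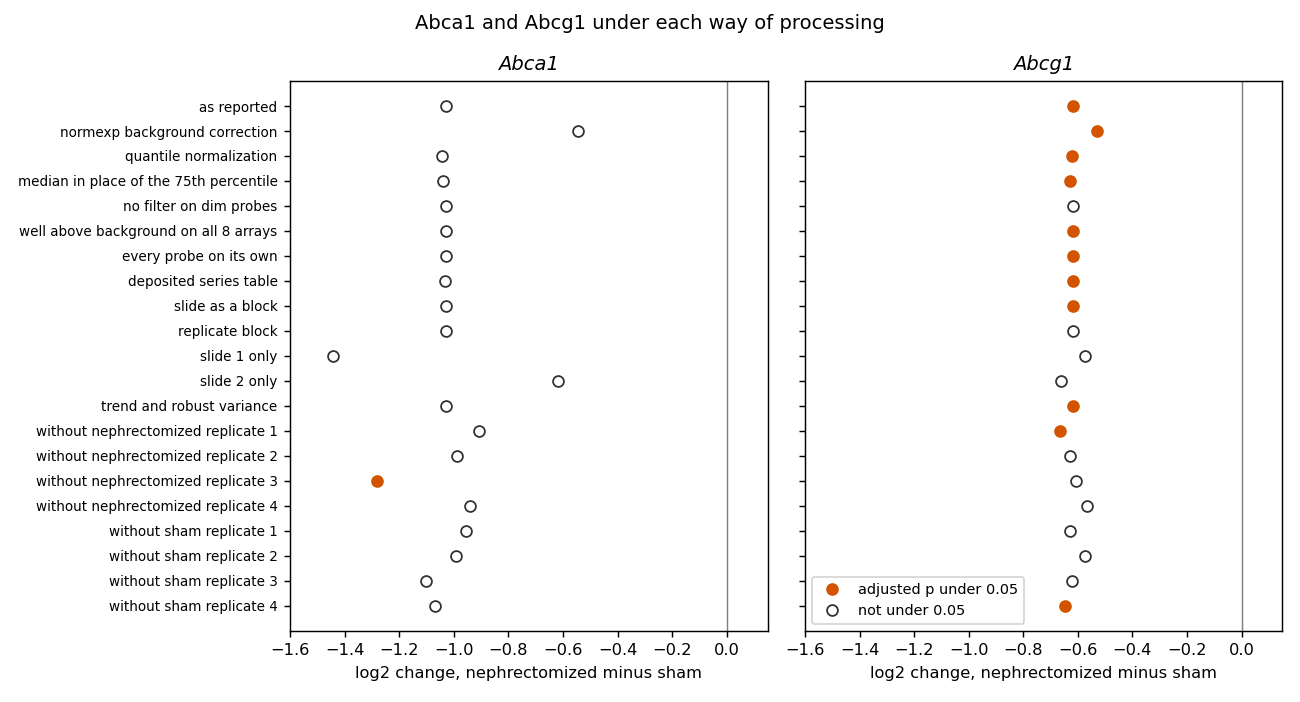
Log2 change of Abca1 and Abcg1, nephrectomized minus sham, under each way of processing, with filled points for an adjusted p under 0.05. Abcg1 lies between -0.67 and -0.53 under all of them, while Abca1 ranges from -1.44 on slide 1 to -0.54 with normexp.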

How the data were processed

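RNA of 8 rat right kidney samples was measured on 1-colour Agilent arrays. The authors deposited scanner output whose processed signal is an intensity, and the file headers give Feature Extraction 10.5.1.1 as its source. Its flags of spots above background are the authors' deposited values too. The authors' deposited table of log2 values correlated above 0.999 with the scanner values (slopes 1.00). It runs in the same direction and on the same scale, shifted to the 75th percentile and centred on each probe's median, with column medians of -0.0145 to 0.0154.

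From the signals, log2 values minus each array's 75th percentile were computed. Control spots (1639 of 45018) and outlier spots were dropped, and replicate spots averaged. Probes well above background on at least 4 of 8 arrays stayed in, and the brightest probe stood for its gene. RefSeq accessions (GRCr8) named 18713 of 41012 probes. The headers name another assembly, so the files' coordinates are not used here. The test was limma 3.58.1 (R 4.3.3; lmFit and eBayes, no covariate, residual df 6, prior df 2.37), adjusted over 20935 features and tested on simulated data. The number of arrays limits the precision.

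The genes and lists were chosen with earlier results of these data known. Named are all 10 genes, up to 4 called genes of each list by smallest p or else its 2 brightest, and the 5 features nearest to Abca1 and to Abcg1. One gene that this rule names is counted but not reported here. The alternatives were normexp on median signals (offset 50), quantile and median scaling, other filters, every probe on its own, trend and robust variance, slide and replicate blocks, each slide alone, the authors' table, and leaving out each array.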

Additional observations from a re-analysis of the deposited data

Results flagged for a closer look

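Among 78 groups of 4 arrays, 2 held an array far from the other 3 by Dixon's test, where chance flags about 1 in 20 groups. Ncor1 was at 4.54 in sham kidney 2, against 4.37 to 4.40 in the other sham kidneys. Adgre1 was at -0.81 in sham kidney 1, against -0.66 to -0.63 in the other sham kidneys.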

How the results depend on the processing

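The direction of change of Nr1h2, Nr1h3, Abca1, Abcg1, Scarb1, Apoe, Pltp, Lpl and Lpcat3 was the same under all 18 alternatives that use both slides, and that of Smpdl3a turned in 4 of them, all within -0.05 to 0.04. Abcg1 passed in 10 of the 18, with limma adjusted p from 0.00508 to 0.104 over them. Limma's calls over all features, 217 as reported, were 20 with no filter on dim probes, 394 with probes above background on all 8 arrays, 100 with slide as a block, 530 with trend and robust variance, and 22 to 197 when 1 array was left out. Called genes among the 10, 1 as reported, numbered 0 with no filter (5 at an unadjusted p under 0.05), and 0 to 1 when 1 array was left out. Called genes of the other lists, 13 as reported, numbered 4 with no filter and 6 to 12 when 1 array was left out. On slide 1 alone limma called 0 features, 0 of the 10 genes and 0 list genes, with 1882, 3 and 18 at an unadjusted p under 0.05, and on slide 2 alone 0, 0 and 0, with 1742, 1 and 18. Only 2 arrays a group enter there. With the replicate block the calls were 10 over all features, 0 of the 10 genes (5 at an unadjusted p under 0.05) and 3 list genes, all 3 of them SREBP2 targets, and the adjusted p of Abcg1 was 0.104. Nothing in the labels pairs the replicate numbers. Deviations of same-numbered arrays correlated at -0.21 to 0.14, and 1 of 4 nephrectomized arrays correlated best with its own number. The cause of these changes in counts was not tested. Dim signal limits Abca1.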
